A study of Mus musculus with 36 samples.

Results

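Expression of the kinases and adaptors that act just inside the pre-B cell receptor was read from the mRNA-seq part of the STATegra time course. The 8 named genes were Lyn, Blk, Syk, Btk, Blnk, Grb2, Plcg2 and Ptpn6. They were matched by symbol in the deposited table of 12762 genes. A row was found for 7 of the 8, all but Blk, which is not analysed here. The rule goes by name and uses no measured value.

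All cells were of the mouse B3 line, pre-B cells that grow in culture and stand for a dividing B cell progenitor. Ikaros cells carried an MSCV retroviral vector for HA-tagged wild type Ikaros fused to the hormone-binding domain ERt2, followed by an IRES and GFP, whereas control cells carried the same kind of vector with ERt2 and no Ikaros. Both kinds of cells kept their own Ikzf1 gene. The drug 4-hydroxytamoxifen (4-OHT, 0.5 uM) moves the fusion protein into the nucleus, and cells were collected 2, 6, 12, 18 or 24 h after it was added. The labels list the drug for the 0 h cells too, while the methods state that the 0 h cells received none and were collected on separate occasions. Each of the 12 groups held 3 libraries, 36 in all. They came from culture batches 1, 2 and 4 at 0 h and from batches 1, 3 and 4 at every later time. Ikaros was thus made from a viral vector and not from its own promoter, in 1 cultured line, which limits the cells as a model of a progenitor in the animal.

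The pre-B cell receptor pairs an immunoglobulin heavy chain with the surrogate light chain and signals through the Cd79a and Cd79b chains. Src family kinases such as Lyn phosphorylate those chains, Syk docks on them and phosphorylates the adaptor Blnk, and Blnk brings Btk and Plcg2 together so that phospholipase C is switched on. Ptpn6, which encodes the phosphatase SHP-1, opposes these steps, and in B cell progenitors the pathway is known for its part in the exit from the cell cycle and in light chain rearrangement.

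After Ikaros induction the 7 genes divided by their values at 24 h. Blnk, Syk and Lyn were higher in Ikaros cells than in control cells, by 17.6-fold, 5.01-fold and 2.97-fold. Ptpn6 and Plcg2 were lower, by 2.27-fold and 1.87-fold, and Btk and Grb2 did not pass the test. All fold changes are on the scale of the deposited values, which are log2 read counts corrected by the authors for gene length, GC content and library preparation. Each difference was tested with limma, with p adjusted by Benjamini-Hochberg over the 12762 genes, and it was counted as called where that adjusted p was under 0.05.

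**Figure D1:**
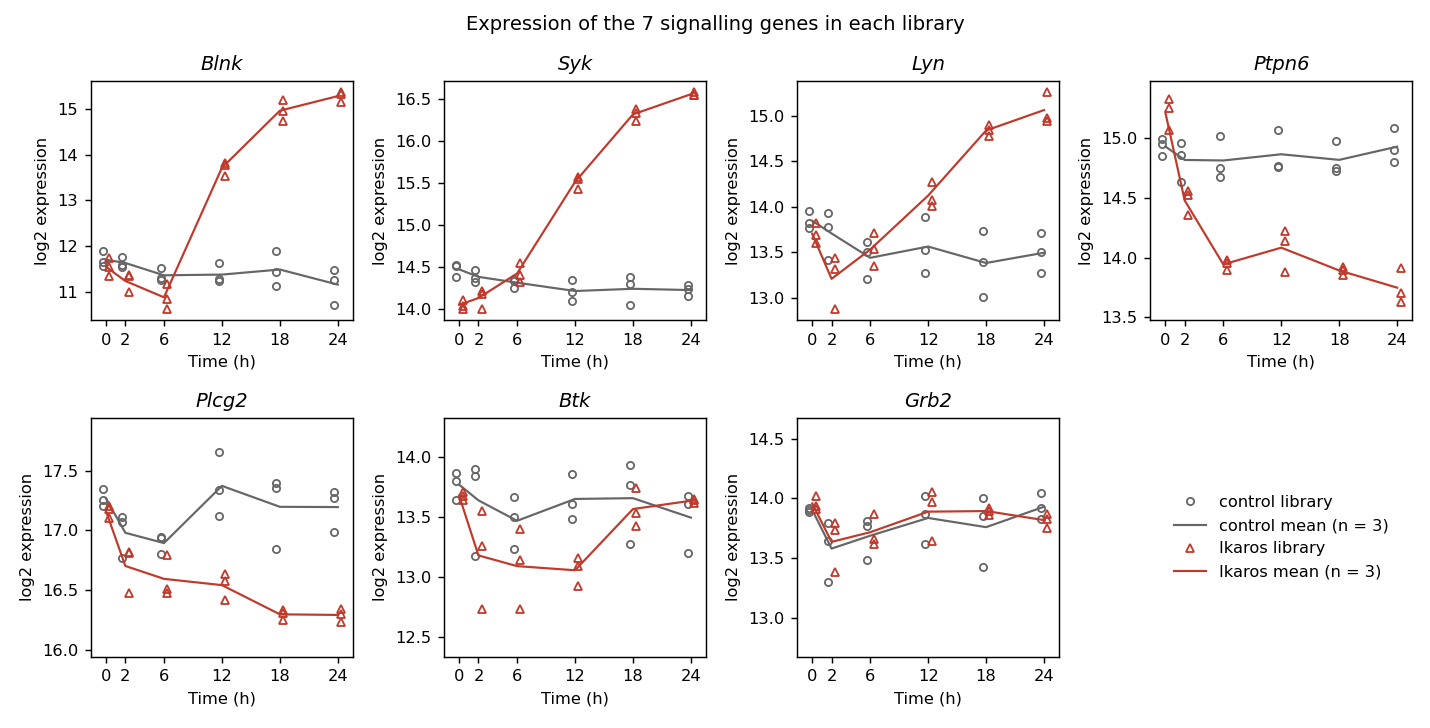
Log2 expression (y axis, a scale of its own in each panel) of the 7 genes against hours (x axis) in each of the 36 libraries. Gray circles are control libraries, red triangles are Ikaros libraries and lines join the means of 3 libraries. From 12 h on, the Ikaros libraries lie above all control libraries of that time for Blnk, Syk and Lyn and below them for Ptpn6 and Plcg2.

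The broad reach of the induction has to be read beside these calls. At 0 h, 1 of the 7 genes was called, against 8.33% of all genes, and at 2 h 2 were, against 19.1%. At 6 h the count was 2, against 37.3%, and at 12 h it was 6, against 45.8%. At 18 h and at 24 h it was 5, against 58.2% and 62.9%. The 5 at 24 h were 3 higher, against 31% of all genes, and 2 lower, against 31.9%. A share of 5 of 7 is therefore near the share of all genes, and the count says little that is particular to these genes. The median difference of the 7 genes at 24 h was 0.14 on the log2 scale, beside -0.01 over all genes. The 3 libraries of the lines did not overlap at 24 h for 5 of the 7, beside 71% of all genes. Of all 12762 differences at 24 h, ranked from the highest, that of Blnk was number 95, that of Syk number 497 and that of Lyn number 1138, whereas Ptpn6 was number 1775 and Plcg2 number 2504 from the lowest, among 4071 genes called lower. In bulk libraries, a change in the share of cells that express a gene and a change in RNA per cell cannot be told apart.

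**Figure D2:**
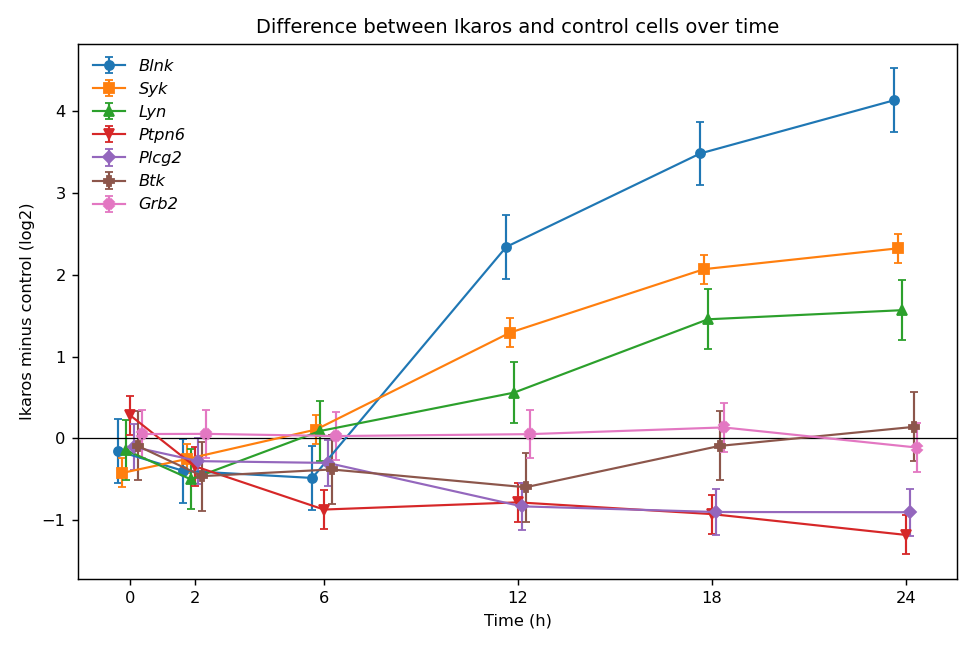
Ikaros minus control difference (y axis, log2) for the 7 genes against hours (x axis). Points are differences between means of 3 libraries and bars are 95% confidence intervals from limma, with points moved slightly sideways so that they can be told apart. Blnk climbs from -0.48 at 6 h to 2.34 at 12 h and 4.14 at 24 h, while the interval of Grb2 spans 0 at every time.

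The labels of the lines were checked on Ikzf1, the gene that encodes Ikaros, whose construct transcripts are counted together with the gene's own. Its mean was 14.70 ± 0.09 (SD, n = 3) in control cells and 19.89 ± 0.16 in Ikaros cells at 0 h, and the 3 libraries of each line did not overlap at any time. All 12 of the listed B cell precursor markers had a row, and the log2 of their summed level ran from 19.63 to 20.00 in control libraries and from 19.30 to 20.32 in Ikaros libraries. At 24 h 10 of the 12 differed by the test between the lines, beside 62.9% of all genes. Of these 10, 8 went upward (31% of all genes) and 2 downward (31.9%). The median difference of the 12 markers was 1.00, and their part in the results was not tested. None of the 7 T cell markers had a row. Rows were found for 2 of 7 myeloid, 3 of 6 erythroid and 2 of 4 natural killer markers. The log2 of the summed level of the myeloid markers ran from 6.01 to 8.74 in control and from 7.82 to 10.03 in Ikaros libraries. At 24 h, 1 of these 2 markers was called higher and 1 lower. For erythroid markers it ran from 8.13 to 9.10 in control and from 7.32 to 9.06 in Ikaros libraries. For natural killer markers these ranges were 6.12 to 8.51 and 5.51 to 9.69. The part of these cell types in the results was not tested. The highest share of identical values between any pair of libraries was 0.384%, and library medians ran from 11.70 to 11.73. No counts per library were used here, so that the depth behind a value is unknown.

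Ikaros is a zinc finger protein that recognizes DNA with the core GGGAA. The stretch of 250 bases before the annotated RefSeq start (GRCm38.p6) was therefore read for the genes that moved most, 2 upward and 2 downward. RefSeq windows were matched for 6 of the 8 named genes, with 8 windows in all, since Syk and Grb2 have 2 starts each. Lyn and Blk had no matched entry. The 4 sequences are given 5′ to 3′ on the strand of the gene in lower case, with GGGAA or its reverse complement TTCCC in capitals. They come from chr19:40994222-40994471 (reverse strand) for Blnk, chr13:52583187-52583436 (forward strand, the first start) for Syk, chr6:124738710-124738959 (reverse strand) for Ptpn6 and chr8:117498025-117498274 (forward strand) for Plcg2.
Blnk: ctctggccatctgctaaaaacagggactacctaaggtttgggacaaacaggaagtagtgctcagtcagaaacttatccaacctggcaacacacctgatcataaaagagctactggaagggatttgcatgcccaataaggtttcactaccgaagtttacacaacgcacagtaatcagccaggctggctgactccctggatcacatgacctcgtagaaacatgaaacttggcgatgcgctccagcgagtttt
Syk: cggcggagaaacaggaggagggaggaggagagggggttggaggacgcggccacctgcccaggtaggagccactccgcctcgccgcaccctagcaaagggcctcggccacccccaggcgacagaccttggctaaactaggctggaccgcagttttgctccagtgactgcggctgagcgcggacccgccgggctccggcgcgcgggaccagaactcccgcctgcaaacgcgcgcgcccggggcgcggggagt
Ptpn6: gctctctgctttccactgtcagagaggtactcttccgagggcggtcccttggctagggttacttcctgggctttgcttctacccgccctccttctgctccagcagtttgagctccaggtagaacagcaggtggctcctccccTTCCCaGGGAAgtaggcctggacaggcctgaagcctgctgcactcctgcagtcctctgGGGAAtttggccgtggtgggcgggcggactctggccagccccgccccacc
Plcg2: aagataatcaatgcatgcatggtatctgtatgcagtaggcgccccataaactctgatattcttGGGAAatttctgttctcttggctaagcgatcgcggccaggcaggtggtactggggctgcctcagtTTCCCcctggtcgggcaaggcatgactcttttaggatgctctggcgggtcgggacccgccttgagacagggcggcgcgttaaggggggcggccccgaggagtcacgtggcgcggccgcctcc
Neither the Blnk window nor either Syk window held the core, the Ptpn6 window held 3 copies on either strand, at 108, 102 and 50 bases before the start, and the Plcg2 window held 2, at 187 and 122 bases. The Btk window held 2 copies, and the windows of Grb2 held 0 and 2. Among all 32851 RefSeq windows of this length, 56.2% held at least 1 copy and 21.2% held at least 2. The windows of Blnk, Syk, Btk and Grb2 lie wholly inside the GENCODE span of their gene, since that annotation places the first base farther upstream, and that of Ptpn6 overlaps it at its edge. These counts only describe letters in a short stretch and say nothing of where Ikaros binds.

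Lyn is the Src family kinase of the set that starts the cascade, and it can also activate inhibitory receptors. The gene lies on chr4:3678115-3813122 (GRCm38, forward strand). In control cells its log2 values for batches 1, 2 and 4 were 13.95, 13.76 and 13.82 at 0 h, and for batches 1, 3 and 4 they were 13.71, 13.50 and 13.27 at 24 h. In Ikaros cells they were 13.82, 13.69 and 13.60 at 0 h, 13.31, 13.43 and 12.87 at 2 h and 13.71, 13.54 and 13.34 at 6 h. From there they were 14.28, 14.08 and 14.01 at 12 h, 14.90, 14.84 and 14.78 at 18 h and 15.26, 14.95 and 14.98 at 24 h. The Ikaros libraries overlapped the control libraries up to 6 h and lay above all of them from 12 h on. Culture batch 4 gave the lowest of the 3 control values at each time from 2 h.

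The difference of Lyn was -0.14 ± 0.18 (SE) at 0 h and reached 0.56 ± 0.18 at 12 h (adjusted p = 0.0119), 1.46 ± 0.18 at 18 h and 1.57 ± 0.18 at 24 h (adjusted p = 2.01e-08). Lyn thus rose relative to control cells, with calls from 12 h on. The call at 12 h was lost without the control library of batch 4 (0.42, adjusted p = 0.0880), without the Ikaros library of batch 1 (0.48, adjusted p = 0.0548) and in a fit of only the 2 groups compared (adjusted p = 0.0641). At 2 h the value was -0.50 ± 0.18 (adjusted p = 0.0505). It passed with the culture batch as a block (adjusted p = 0.000974), separate 0 h blocks (0.000548), a filter on low levels (0.0447), quantile normalization (0.0482) and limma with trend and robust (0.0403). A fit of only the 2 groups compared did not call it (0.242). The step of the Ikaros line from 0 to 2 h was -0.50 (adjusted p = 0.0520). That step passed with the block (0.00139), the filter (0.0420) and trend and robust (0.0414). In the Ikaros line the steps from 6 to 12 h (0.59, adjusted p = 0.0193) and from 12 to 18 h (0.72, adjusted p = 0.00422) passed the test, and that from 18 to 24 h (0.22, adjusted p = 0.602) did not. The first of these steps was lost without the 6 h library of batch 4 (0.50, adjusted p = 0.0975) or the 12 h library of batch 1 (0.52, adjusted p = 0.0719), and in a fit of only the groups compared (adjusted p = 0.140). The step from 2 to 6 h (0.32, adjusted p = 0.273) passed with the batch as a block (adjusted p = 0.0372). On the opposite strand, 4 annotated genes overlap Lyn. The libraries kept strand, but the strand setting of the counting is not given in the sources used here.

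Syk is the tandem SH2 kinase that binds the phosphorylated receptor chains (chr13:52583173-52648792, forward strand). Its control values were 14.52, 14.52 and 14.38 at 0 h and 14.28, 14.24 and 14.16 at 24 h. Ikaros values were 14.00, 14.11 and 14.04 at 0 h, 14.22, 14.18 and 14.00 at 2 h and 14.55, 14.40 and 14.33 at 6 h. They then stood at 15.54, 15.57 and 15.42 at 12 h, 16.38, 16.33 and 16.23 at 18 h and 16.58, 16.54 and 16.54 at 24 h. Syk began below the control libraries at 0 and 2 h, overlapped them at 6 h and lay more than 1 log2 unit above every one of the same time from 12 h. The Ikaros libraries of batches 3 and 4 hold exactly the same value at 24 h, so that the SD there (0.02) is unusually small, while the limma fit uses the spread of all 12 groups.

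The difference of Syk turned from -0.42 ± 0.09 (SE) at 0 h (adjusted p = 0.00141) to 1.29 ± 0.09 at 12 h (adjusted p = 2.98e-12) and 2.33 ± 0.09 at 24 h (adjusted p = 1.09e-17). Set against 0 h, the change at 24 h was 2.75 ± 0.12 (adjusted p = 2.51e-15), and measured from 2 h, with no 0 h library, it was 2.58 ± 0.12 (adjusted p = 1.06e-14). The rise did not depend on the separately collected 0 h cells. The lower value at 2 h (-0.25 ± 0.09, adjusted p = 0.0406) was lost without the control library of batch 1 (adjusted p = 0.0811) or 3 (0.156), and without the Ikaros library of batch 3 (0.0575) or 4 (0.202). Within the Ikaros line, the step from 2 to 6 h was 0.29 (adjusted p = 0.0273), and those to 12 h and 18 h were 1.09 (adjusted p = 2.65e-09) and 0.80 (adjusted p = 1.97e-07). The call from 2 to 6 h was lost without the 2 h library of batch 4 (0.23, adjusted p = 0.155) and without the 6 h library of batch 1 (0.23, adjusted p = 0.130) or batch 3 (0.30, adjusted p = 0.0535). The step from 18 to 24 h (0.24, adjusted p = 0.107) passed with the culture batch as a block (adjusted p = 0.0293).

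Btk, the Tec family kinase that phosphorylates Plcg2 (chrX:134542336-134583570, reverse strand), behaved differently. At 12 h the control values were 13.86, 13.61 and 13.48 and the Ikaros values 13.15, 13.09 and 12.92. At 24 h the control values were 13.68, 13.61 and 13.20 and the Ikaros values 13.64, 13.65 and 13.62. The groups were apart at 12 h and overlapped at 24 h, where the 3 Ikaros libraries were close together (SD 0.02, n = 3). The difference of Btk at 12 h was -0.60 ± 0.20 (SE, adjusted p = 0.0185), a call that was lost without the control library of batch 1 (-0.49, adjusted p = 0.0868) or the Ikaros library of batch 4 (-0.53, adjusted p = 0.0692). At 2 h and 6 h the differences were -0.46 ± 0.20 (adjusted p = 0.123) and -0.38 ± 0.20 (adjusted p = 0.149), and with the batch as a block the first of them passed (adjusted p = 0.0395). With separate 0 h blocks both passed (adjusted p = 0.0278 and 0.0446). At 24 h the difference was 0.14 with a 95% confidence interval from -0.28 to 0.56. An F test of all 5 changes of the difference from 0 h did not call Btk (adjusted p = 0.185), though it did with the batch as a block (adjusted p = 0.0460).

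Blnk is the scaffold without an enzyme activity of its own on which Btk and Plcg2 meet (chr19:40928927-40994535, reverse strand). Its control values were 11.88, 11.65 and 11.56 at 0 h, 11.51, 11.26 and 11.29 at 6 h and 11.48, 11.26 and 10.71 at 24 h. In Ikaros cells it stood at 11.35, 11.75 and 11.53 at 0 h, 11.35, 11.36 and 10.98 at 2 h and 11.16, 10.84 and 10.61 at 6 h. The values were then 13.82, 13.78 and 13.54 at 12 h, 15.20, 14.96 and 14.74 at 18 h and 15.38, 15.15 and 15.33 at 24 h. All 3 Ikaros libraries were below all 3 control libraries at 2 and 6 h and above them at 12, 18 and 24 h.

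The difference of Blnk was -0.48 ± 0.19 (SE) at 6 h (adjusted p = 0.0462), 2.34 ± 0.19 at 12 h (adjusted p = 1.23e-10), 3.49 ± 0.19 at 18 h (adjusted p = 2.23e-14) and 4.14 ± 0.19 at 24 h (adjusted p = 4.19e-16). The step of the Ikaros line from 6 to 12 h, 2.84 ± 0.19 (adjusted p = 1.54e-10), was number 10 from the highest of all 12762 genes for that interval. A further 1.25 was added to 18 h (adjusted p = 2.28e-05), and from 18 to 24 h the step of 0.32 did not pass (adjusted p = 0.418). The mean level of Blnk, on the length-corrected scale, stood at percentile 49.7 of all genes in control cells at 0 h and at percentile 95.1 in Ikaros cells at 24 h. The small deficit at 6 h was lost when the control library of batch 1 (adjusted p = 0.151), 3 (0.0567) or 4 (0.0722) or the Ikaros library of batch 3 (0.0993) or 4 (0.193) was left out, whereas the calls from 12 h on held without any single library. At 2 h the value was -0.40 ± 0.19 (adjusted p = 0.157), and with the batch as a block the adjusted p was 0.0371.

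Grb2 is the general adaptor that links receptors to Ras through Sos proteins (chr11:115644045-115708597, reverse strand). Its values ran from 13.30 to 14.04 over the 18 control libraries and from 13.38 to 14.05 over the 18 Ikaros libraries. The lines overlapped at every time. No difference was called at any time, and the value at 24 h was -0.11 with a 95% confidence interval from -0.41 to 0.18, which leaves room for a small difference in either direction. An annotated pseudogene overlaps Grb2 on the same strand, and its effect on the counting of Grb2 reads was not tested.

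Plcg2 encodes phospholipase C gamma 2, the enzyme that releases calcium in B cells once Btk has phosphorylated it (chr8:117498291-117635142, forward strand). In control cells it stood at 17.25, 17.20 and 17.34 at 0 h, 17.65, 17.34 and 17.13 at 12 h and 17.32, 17.27 and 16.99 at 24 h. In Ikaros cells it stood at 17.11, 17.18 and 17.20 at 0 h, 16.82, 16.81 and 16.48 at 2 h and 16.80, 16.48 and 16.51 at 6 h. Later values were 16.58, 16.63 and 16.42 at 12 h, 16.25, 16.31 and 16.34 at 18 h and 16.34, 16.30 and 16.23 at 24 h. The lines were apart at every time except 2 h, but the means differed by only -0.10 at 0 h and -0.30 at 6 h.

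Plcg2 was lower than in control cells, with differences of -0.83 ± 0.14 (SE) at 12 h (adjusted p = 1.83e-05), -0.90 ± 0.14 at 18 h (adjusted p = 3.45e-06) and -0.90 ± 0.14 at 24 h (adjusted p = 2.63e-06). At 2 h the value was -0.28 ± 0.14 (adjusted p = 0.177), and with separate 0 h blocks it passed (adjusted p = 0.0442). At 6 h the value was -0.30 ± 0.14 (adjusted p = 0.0915), and with the batch as a block it passed (adjusted p = 0.0360). In the Ikaros line only the step from 0 to 2 h was called (-0.46, adjusted p = 0.0216), a step that involves the separately collected 0 h cells. It was lost without the 0 h library of batch 2 (adjusted p = 0.0531) or 4 (0.0688) and without the 2 h library of batch 4 (-0.34, adjusted p = 0.174). Control values were lower at 2 and 6 h as well, with means of 16.98 ± 0.19 (SD, n = 3) and 16.89 ± 0.08. Plcg2 remained among the most abundant of all genes, at percentile 97.9 in Ikaros cells at 24 h.

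Ptpn6 (SHP-1), the inhibitory phosphatase of the set (chr6:124720707-124738714, reverse strand), was lower already at 2 and 6 h. Control values were 14.95, 14.99 and 14.85 at 0 h, 14.96, 14.86 and 14.63 at 2 h and 15.01, 14.75 and 14.67 at 6 h, and at 24 h they were 15.08, 14.80 and 14.90. Ikaros values were 15.33, 15.25 and 15.07 at 0 h, 14.56, 14.52 and 14.35 at 2 h and 13.95, 13.98 and 13.90 at 6 h. They were 14.22, 14.14 and 13.88 at 12 h, 13.86, 13.92 and 13.90 at 18 h and 13.63, 13.91 and 13.71 at 24 h. The Ikaros libraries were all above the control libraries at 0 h and all below them at every later time.

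The difference of Ptpn6 was 0.29 ± 0.12 (SE) at 0 h (adjusted p = 0.153, and 0.0475 with the batch as a block), -0.34 ± 0.12 at 2 h (adjusted p = 0.0408), -0.87 ± 0.12 at 6 h (adjusted p = 1.51e-06) and -1.18 ± 0.12 at 24 h (adjusted p = 1.32e-09). It was the only 1 of the 7 whose change from the 0 h difference was called by 2 h (-0.62 ± 0.16, adjusted p = 0.0317, beside 3.1% of all genes). That call was lost in 7 of the 12 fits that left out 1 library: without the control library of batch 1 (adjusted p = 0.0604) or 4 (0.0780) at 0 h, the control library of batch 1 (0.105) or 3 (0.0776) at 2 h, the Ikaros library of batch 1 (0.0985) or 2 (0.0696) at 0 h, and the Ikaros library of batch 4 at 2 h (0.0967). The call at 2 h itself was lost without the control library of batch 1 (adjusted p = 0.192) or 3 (0.114) or the Ikaros library of batch 3 (0.0649) or 4 (0.165). In the Ikaros line the steps from 0 to 2 h (-0.74, adjusted p = 5.57e-05) and from 2 to 6 h (-0.54, adjusted p = 0.00313) were called, and none of the later ones was. A gene on the opposite strand overlaps Ptpn6.

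The means reached their 24 h difference at different times, which is given as a description. Of the change of the difference from 0 to 24 h on the log2 scale, Ptpn6 had reached 78.8% by 6 h, while Syk had reached 19.3%, Lyn 13.7% and Plcg2 24.4%, and the value of Blnk had the opposite sign. By 12 h the shares were 91.0% for Plcg2, 72.8% for Ptpn6, 62.5% for Syk, 58.2% for Blnk and 41.1% for Lyn. By 18 h they lay between 82.6% and 99.6%. Of the steps of the Ikaros line, 2 of the 7 genes were called from 0 to 2 h (19.2% of all genes), 2 from 2 to 6 h (11.2%), 3 from 6 to 12 h (20.8%), 3 from 12 to 18 h (25.5%) and none from 18 to 24 h (5.77%). Over that last interval, 0 of the 7 had an adjusted p under 0.05 by limma, and Syk alone had an unadjusted p under 0.05 and was called with the batch as a block. With the batch as a block, 5 of the 7 were called from 0 to 2 h, Lyn, Btk and Grb2 being added to Plcg2 and Ptpn6. For that step the block fit called 3720 of all 12762 genes, beside 2444 in the main analysis. It treats a batch number at 0 h as the same batch later, though the 0 h cells were collected separately. With the block, the steps of Lyn from 2 to 6 h (adjusted p = 0.0372) and of Btk from 12 to 18 h (adjusted p = 0.0173) passed too.

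The change of the difference from 0 h was called for 1 of the 7 genes at 2 h, for 2 at 6 h (Syk higher and Ptpn6 lower, 15.9% of all genes) and for 5 at 12, 18 and 24 h (29.7%, 43% and 48.4%). The 5 at 12 h include Lyn (0.70 ± 0.25, SE, adjusted p = 0.0363), which was lost in 7 of the 12 fits that left out 1 library: the control libraries of batches 1 (0.0821) and 4 (0.0522) at 0 h and of batches 3 (0.0675) and 4 (0.114) at 12 h, and the Ikaros libraries of batches 2 (0.0629) and 4 (0.0773) at 0 h and of batch 1 (0.0839) at 12 h, with the adjusted p in parentheses. From 2 to 24 h it was called for 5 (47.3%), and with the batch as a block Btk passed as well (0.60, adjusted p = 0.0289). An F test of the 5 changes together called 5 genes (Lyn, Syk, Blnk, Plcg2 and Ptpn6), against 59.8% of all genes. Over time, 6 of the 7 were called within the Ikaros line (all but Grb2, 76.4% of all genes), and 0 of the 7 within the control line (1.69%), which also received the drug. By limma, 2 of the 7, Syk and Plcg2, had an unadjusted p under 0.05 in the control line, and with the batch as a block Lyn (adjusted p = 0.0401) and Plcg2 (adjusted p = 0.0459) were called. The changes from 0 h share the 0 h libraries with each other.

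**Figure D3:**
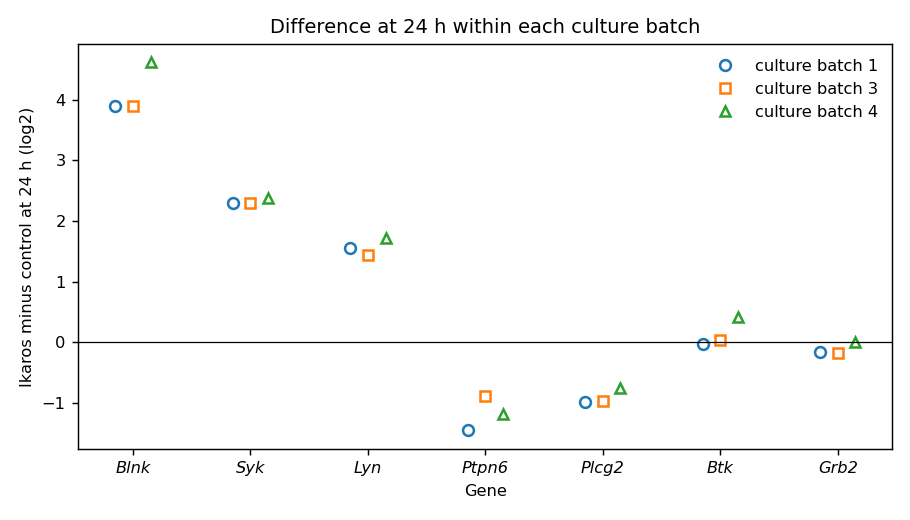
Ikaros minus control difference at 24 h (y axis, log2) within each of the 3 culture batches (symbols) for the 7 genes (x axis). Blnk, Syk and Lyn are above 0 and Ptpn6 and Plcg2 below 0 in all 3 batches, which follows from lines that do not overlap for these genes. Btk and Grb2 lie on both sides of 0.

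Values within a culture batch, the Ikaros library minus the control library of the same batch number and time, show the same differences batch by batch. At 24 h Blnk differed by 3.90 in batch 1, 3.89 in batch 3 and 4.62 in batch 4, and Syk by 2.30, 2.30 and 2.38. Lyn differed by 1.55, 1.44 and 1.71, Ptpn6 by -1.46, -0.89 and -1.19 and Plcg2 by -0.98, -0.97 and -0.76. Each of the 5 genes had 1 direction in 3 of 3 batches at 12, 18 and 24 h. The lines did not overlap for these genes at those times, so any pairing of the libraries gives that result. It is therefore no separate support, and 71% of all genes did not overlap at 24 h. Btk was lower in 3 of 3 batches at 2, 6 and 12 h and higher in 2 of 3 at 24 h. Lyn, Syk, Blnk, Plcg2 and Ptpn6 were lower in 3 of 3 batches at 2 h too. The share of all genes with 1 direction in 3 of 3 batches is not given here.

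Over the 36 libraries, Blnk and Syk had a Pearson correlation of 0.978, Blnk and Lyn 0.936, Syk and Lyn 0.929 and Ptpn6 and Plcg2 0.886. Between the pairs, Syk and Ptpn6 had -0.775 and Syk and Plcg2 -0.727. The points share the 2 lines and the 6 times, so these are descriptions and carry no test. Among 6366 genes at or above the median level, the 3 most like Syk were Akap12 (0.985), Tifa (0.984) and Blnk, and those most like Blnk were Syk, Tifa (0.976) and Dgkd (0.966). Lyn was most like Aff1 (0.982), Chst3 (0.972) and Gse1 (0.969). Ptpn6 was most like Bcl11a (0.964), Endod1 (0.962) and Mapk14 (0.958), and Plcg2 like Ptgir (0.957), St3gal1 (0.952) and Acsl5 (0.949). For Btk these were C330007P06Rik (0.935), Irf2bp2 (0.923) and Abl2 (0.909). Grb2 reached only 0.855 with Ptbp1, 0.845 with Tubb5 and 0.845 with Ccdc6.

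The other genes of the pathway give the surroundings of these changes at 24 h. In lists of receptor chains, other proximal kinases, other adaptors, effectors and inhibitory receptors or phosphatases, 101 genes had a row, and 77 of them were called, 47 higher and 30 lower, which is 76.2% beside 62.9% of all genes. These counts are of the difference between the lines at 24 h, not of its change from 0 h. At 0 h, 2 of 7 receptor genes, 3 of 9 other proximal kinases and 11 of 29 other adaptors were already called. So were 5 of 33 effectors and 7 of 23 inhibitory receptors or phosphatases, against 8.33% of all genes. The part of these earlier differences in the 24 h counts was not tested. Of the 7 receptor genes, 2 were higher, Cd79b (2.29 ± 0.11, SE) and Ighm (1.66 ± 0.18), which encode a signalling chain and the heavy chain. The surrogate light chain genes Vpreb2 (-4.39 ± 0.29, and already -1.28 at 0 h), Igll1 (-3.96 ± 0.20) and Vpreb1 (-3.42 ± 0.25) were lower, as was Vpreb3 (-0.65 ± 0.26), and Cd79a, with -0.15 ± 0.10 (adjusted p = 0.192), did not pass. The median of the list was -0.65.

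Of the 9 other proximal kinases with a row, 5 were called higher and 2 lower. The higher ones were Tec (2.10 ± 0.21), a kinase of the family of Btk, Fgr (1.77 ± 0.39), Ptk2b (0.51 ± 0.09), Csk (0.37 ± 0.11), which restrains Src family kinases, and Fyn (0.31 ± 0.09). Zap70 (-1.06 ± 0.16), the T cell relative of Syk, was among the lower ones, while Lck (0.02 ± 0.12) did not pass. Fgr stood at percentile 7.46 of all genes, so that its value rests on a low level, and without the Ikaros library of batch 4 only 1 kinase of the list was called lower. The median was 0.31.

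Of 29 other adaptors, 15 were called higher and 9 lower, with a median of 0.33. Dok3, an inhibitory docking protein, had 3.06 ± 0.10 and Grap, a relative of Grb2, 1.74 ± 0.13. Lcp2 (SLP-76, the relative of Blnk used by T cells and myeloid cells) had -5.70 ± 0.30 and Lat, its partner in T cells, -2.34 ± 0.18, though Lcp2 stood at percentile 8.06. Lcp2 was already lower at 0 h, by -3.54. Among the adaptors 5 were not called, Crkl (0.71 ± 0.32), Shc1 (0.33 ± 0.14), Dapp1 (0.19 ± 0.11), Grap2 (-0.16 ± 0.27) and Pik3ap1 (-0.46 ± 0.36).

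Of 33 effectors, 15 were called higher, 7 lower and 11 were not called, with a median of 0.34. Rasgrp3 (3.50 ± 0.80), an exchange factor for Ras, and Nfatc1 (1.55 ± 0.26), a calcium-regulated transcription factor, had the highest values. Prkcb, the protein kinase C isoform that acts after Plcg2, had -4.35 ± 0.75 and the calcium channel gene Orai1 -1.23 ± 0.12. Rasgrp3 and Prkcb stood at percentile 3.07 and 4.49 and already differed at 0 h, by 4.46 and -4.87.

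Ptpn6 was set beside 23 other inhibitory receptors and phosphatases, of which 10 were called higher and 8 lower at 24 h, with a median of 0.67. Fcgr2b, the inhibitory Fc receptor, had 7.08 ± 0.32 and Cd22, an inhibitory lectin that recruits SHP-1, 4.74 ± 0.46, and both were already higher at 0 h, by 2.08 and 5.31. Ubash3b (-1.54 ± 0.14) and Dusp4 (-1.50 ± 0.30) had the lowest values. Here 5 were not called, among them Ceacam1 (-0.39 ± 0.45), Cd5 (0.02 ± 0.24), Cd300a (0.73 ± 0.65) and Dusp1 (0.85 ± 0.52).

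**Figure D4:**
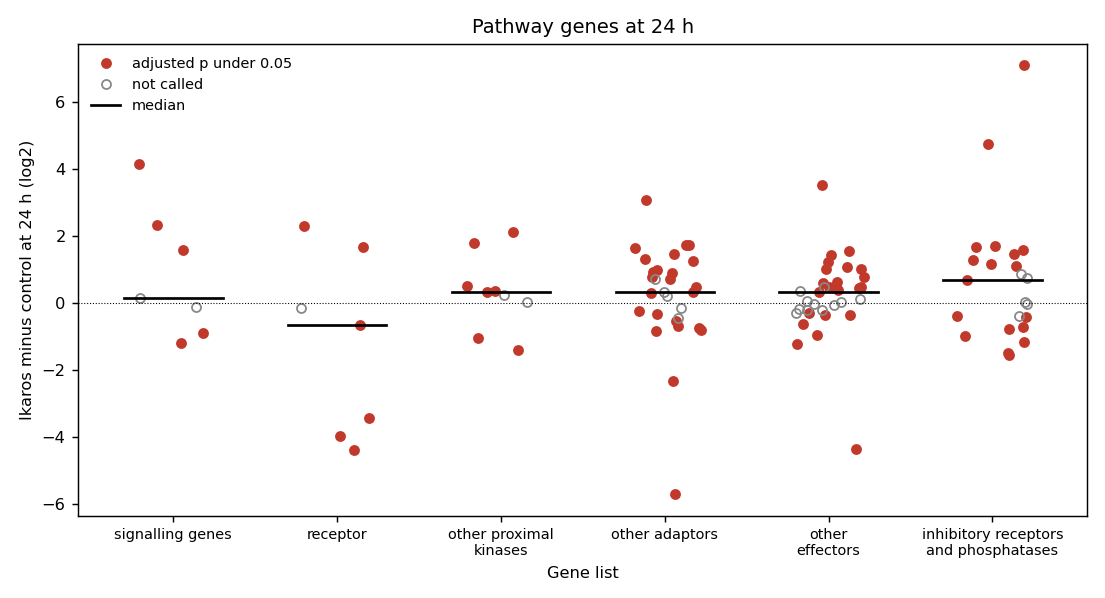
Ikaros minus control difference at 24 h (y axis, log2) for the 7 signalling genes and for the 5 lists of other pathway genes (x axis). Filled red points were called at an adjusted p under 0.05, open gray points were not, black bars are medians, and sideways positions within a list carry no meaning. Every list with more than 7 genes holds called genes on both sides of 0, and its median lies between 0.31 and 0.67.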

How the data were processed

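The authors trimmed the paired-end reads, aligned them with TopHat2 to mm10 keeping a unique best hit and counted reads per gene with HTSeq. The table they deposited holds log2 values after cqn (gene length and GC content) and ComBat (library preparation), shifted so that the lowest is 1. The log base was read from the methods and the values, not from a header. Such smoothing can shrink differences tied to preparation. Versions are not given in the sources used here.

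From there, a linear model of 12 group means over all 36 libraries was fitted (limma 3.58.1, R 4.3.3) with 24 residual degrees of freedom, two-sided, with Benjamini-Hochberg adjustment over all 12762 genes. No filter was applied. The fit was tested on simulated data. Genes were named by the following rule: the 8 listed genes, Ikzf1 as a check, per pathway list the 2 highest and 2 lowest differences called at 24 h and any count of 5 or fewer (a few of these genes are not reported here), the receptor genes, and the 3 genes most correlated with each member. The members and lists were chosen with earlier results of these data known. Of 12762 rows, 12501 carried a symbol. Gene spans come from GENCODE on GRCm38, the build of mm10.

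The labels give batch numbers only, and the methods describe a batch as a repeat of the time course whose cells were harvested together. Ikaros and control cells grew in separate flasks. A block by batch number pairs their libraries. The 0 h cells were obtained separately, so a 0 h batch need not be the later batch of the same number. Deviations from the group means correlated by -0.06 to 0.51 over 18 pairs (median 0.13, 12 above 0.1). Alternatives were that block, also with separate 0 h blocks, a filter at the 25th percentile, quantile normalization, limma with trend and robust, fits of only the groups compared, and leaving out each library. Differences within batches were added after the data were seen.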

Additional observations from a re-analysis of the deposited data

Results flagged for a closer look

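The difference between Ikaros and control cells at 24 h was not that at 0 h for 5 of the 7 genes, by the limma test of the change itself. The change was 4.29 ± 0.27 (SE, log2) for Blnk (adjusted p = 1.04e-12), 2.75 ± 0.12 for Syk (adjusted p = 2.51e-15) and 1.71 ± 0.25 for Lyn (adjusted p = 2.91e-06). It was -1.46 ± 0.16 for Ptpn6 (adjusted p = 3.62e-08) and -0.80 ± 0.20 for Plcg2 (adjusted p = 0.00139). Of all genes, 48.4% passed the same test. Measured from 2 h, with no 0 h library, the changes were 4.53, 2.58, 2.07, -0.84 and -0.62 in that order, with adjusted p from 1.06e-14 to 0.0103. At 0 h the differences were -0.15 for Blnk, -0.42 for Syk, -0.14 for Lyn, 0.29 for Ptpn6 and -0.10 for Plcg2, of which that of Syk alone was called.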

How the results depend on the processing

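The 5 calls at 18 h and the 5 at 24 h among the 7 genes kept their direction and side of the threshold under every alternative run. With the replicate block, which pairs libraries by batch number, 2 of them were called at 0 h and 5 at 2 h. In the Ikaros line it called 5 from 0 to 2 h and 1 from 18 to 24 h, and in the control line 2 over time. Over all genes the block fit called 3720 from 0 to 2 h (2444 in the main analysis) and 763 over time in the control line (216). With separate 0 h blocks 2, 6 and 4 of the 7 genes were called at 0, 2 and 6 h, and 661 genes (396 in the main analysis) changed their difference from 0 to 2 h. Shares over all genes at 0, 2 and 6 h in the block fits are not given here. Those counts therefore say nothing particular to the 7 genes. The filter on low levels gave 701 genes at 0 h (1063), 136 over time in the control line (216) and 1 proximal kinase lower (2).

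Fits of only the groups compared have fewer samples and called fewer genes: 860 at 2 h (2432), 2150 at 6 h (4759), 257 for the change from 0 to 2 h, 3 over time in the control line, and in the Ikaros line 758 from 0 to 2 h (2444), 6 from 2 to 6 h (1425), 70 from 6 to 12 h (2651), 2085 from 12 to 18 h (3252) and 442 from 18 to 24 h (737). Of the 7 genes they called 0 at 2 h, 1 at 6 h, 0 for the change from 0 to 2 h, 1 from 0 to 2 h and 0 from 2 to 6 h. Lost there were the calls of Syk (adjusted p = 0.319) and Ptpn6 (0.240) at 2 h, Blnk at 6 h (0.126), Lyn at 12 h (0.0641), the change of Ptpn6 from 0 to 2 h (0.102) and the steps of Plcg2 from 0 to 2 h (0.104), Syk (0.394) and Ptpn6 (0.147) from 2 to 6 h and Lyn from 6 to 12 h (0.140). Gained there were 2 calls of Btk. These were the change of its difference from 0 to 12 h (-0.50, adjusted p = 0.0389) and its step from 12 to 18 h (0.51, adjusted p = 0.0457).

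Leaving out 1 library gave 683 to 952 genes at 0 h, 69 to 235 over time in the control line and, in the Ikaros line, 1065 to 2738 from 0 to 2 h, 846 to 1206 from 2 to 6 h, 1564 to 2810 from 6 to 12 h and 361 to 578 from 18 to 24 h. Of the 7 genes, 0 to 4 were called at 2 h, 1 to 3 at 6 h and 0 to 1 for the change from 0 to 2 h. Over all 12762 genes these fits called 1713 to 2478 at 2 h, 3891 to 4447 at 6 h and 273 to 473 for that change. In the Ikaros line 1 to 3 of the 7 were called from 0 to 2 h and 1 to 2 from 2 to 6 h, and 1 to 2 proximal kinases were lower at 24 h. The causes were not tested.

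Directions turned only for values near 0 that were not called, 19 in all, in 45 fits without 1 library and, for 2 of these values, under quantile normalization. Those were the change of the difference of Grb2 from 0 to 2 h (-0.00534) and the Ikaros-line step of Plcg2 from 18 to 24 h (0.0103). Without 1 library, the difference of Grb2 ran from -0.0843 to 0.183 at 2 h, -0.0738 to 0.0902 at 6 h, -0.0556 to 0.175 at 12 h and -0.0318 to 0.256 at 18 h, and its change from 0 h from -0.14 to 0.13 at 2 h, -0.13 to 0.0361 at 6 h, -0.11 to 0.12 at 12 h and -0.0859 to 0.202 at 18 h. That of Btk ran from -0.28 to 0.0464 at 18 h and -0.00785 to 0.233 at 24 h, with a change from 0 to 18 h of -0.19 to 0.14, and that of Lyn from -0.0278 to 0.184 at 6 h. In the Ikaros line the step of Btk ran from -0.31 to 0.0980 (2 to 6 h), -0.21 to 0.12 (6 to 12 h) and -0.00135 to 0.156 (18 to 24 h), that of Grb2 from -0.0458 to 0.158 (2 to 6 h) and -0.12 to 0.0860 (12 to 18 h), and that of Plcg2 from -0.11 to 0.0492 (6 to 12 h) and -0.0294 to 0.0248 (18 to 24 h). With 3 libraries a group and no read counts, differences below about the confidence intervals given are not resolved.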
